A study of Mus musculus with 2 samples.

Results

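Liver parenchymal cells were not the target of this experiment, yet 254 of 4830 barcodes in 1 of its 2 droplet libraries carried hepatocyte transcripts. A barcode was counted when it held at least 3 UMIs (unique molecular identifiers, 1 per captured transcript) summed over Alb, Apoa1, Apoa2, Apoc3, Ttr, Serpina1c, Fgb and Fabp1, at most 2 UMIs of the complement genes C1qa, C1qb and C1qc, which mark macrophages, and none of Ptprc, the leukocyte antigen CD45. Of the 400 barcodes with at least 3 UMIs of the 8 hepatocyte genes, 316 passed the limit on the complement genes and 254 of those had no Ptprc UMI. A dominant hashtag (an antibody-borne oligonucleotide that labels all cells of a group) assigned 238 of them to a group, and 16 had none. The whole series held 14421 barcodes. The barcodes were thus chosen by their UMIs of these 12 genes, whose values are given as a description.

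Female BALB/c mice, with the genotype given as BALB/cAnNCrl, were 7 to 8 weeks old at purchase and carried liver metastases of 4T1, a mouse mammary carcinoma line, seeded through a split spleen of which only a part was kept. They were treated with CBL0137 at one of its doses, called low and high in the labels, or with the vehicle. CBL0137 is a small molecule that binds DNA and traps the histone chaperone FACT on chromatin. Drug or vehicle was infused into the hepatic artery over 15 min, and the amounts behind "low" and "high" are not stated by the labels or the methods. The pools of 2 mice per group were sampled 5 days later, so each group was 1 sample, no test was possible, and every interval below covers counting error only. The labels describe leukocytes purified on a density gradient. The methods use such a gradient for liver leukocytes, but name cells isolated with CD11b beads for the single-cell libraries. A figure caption of the paper names leukocytes from the liver for them. Neither procedure aims at hepatocytes.

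Hepatocytes make most plasma proteins, among them albumin, apolipoproteins, fibrinogen and transferrin, and they clear ammonia, make glucose and bile acids, and metabolize drugs. Messages for secreted proteins are translated on ribosomes bound to the endoplasmic reticulum, and messages for most cytosolic enzymes on free ribosomes. The cells are rich in mitochondria and fragile once the liver is digested.

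The group of a barcode rests on 3 hashtag sequences of 15 bases, which are shown because every comparison between doses depends on them. All bases are in capitals because the whole sequence is read. That A0305 marks a low dose rests on the labels alone: the methods list all 3 sequences, but name only A0301 and A0310 for the staining and give the treatment as vehicle or CBL0137 without a second dose. Every low dose value below carries that doubt. A hashtag was dominant when it had at least 10 UMIs and at least 3 times the UMIs of the next.
A0301, vehicle: ACCCACCAGTAAGAC
A0305, low dose: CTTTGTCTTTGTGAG
A0310, high dose: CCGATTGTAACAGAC

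The library with these barcodes is labelled spleen, but its matrix is named for the liver. It held 6378 UMIs of the 8 hepatocyte genes among 35672251 gene UMIs, or 179 per 1000000. The library labelled liver held 30 among 79585807, or 0.377 per 1000000, and none of its 9591 barcodes met the rule. Hepatocyte transcripts therefore lay in the library whose label names the other organ, and it is called the library labelled spleen throughout. The 238 barcodes held 42.9% of its hepatocyte gene UMIs. The libraries shared 15 barcode sequences, 1 of them among the 238.

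Genes that place these transcripts lie on several chromosomes in the mm10 build (GENCODE release 21). Alb, the main plasma protein, spans chr5:90460897-90476602 on the plus strand. Apoa1, the main protein of high density lipoprotein, spans chr9:46228580-46230466 on the plus strand, and Fgb, the fibrinogen beta chain, chr3:83040141-83049863 on the minus strand. Fabp1, the abundant fatty acid carrier of the hepatocyte cytosol, spans chr6:71199827-71205023 on the plus strand.

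At the high dose 205 of 207 barcodes, and in the other groups all 25 and all 6, had UMIs of at least 2 of the 8 genes. At the high dose Alb was seen in 141 barcodes (350 UMIs), Apoa1 in 138 (295 UMIs), Fgb in 130 (348 UMIs) and Fabp1 in 77 (500 UMIs). Fabp1 thus gave the most UMIs from fewer barcodes than Alb, Apoa1 or Fgb. Trf (transferrin), which the rule did not use, was seen in 142 of 207 high dose barcodes, in 19 of 25 at the low dose and in 5 of 6 from the vehicle. The 8 genes summed to 3 UMIs in the lowest barcode, 5 in the median barcode and 277 in the highest. At the limit itself, 52 high dose barcodes with 3 UMIs had a median of 2221.5 gene UMIs and 92.9% mitochondrial UMIs, and 107 just outside it, with 2 UMIs, had medians of 1818 and 82.7%.

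These barcodes were shallow and rich in mitochondrial transcripts. Their median was 1980.5 gene UMIs and 340.5 genes, against 3368.5 and 1133 over the whole library, and 66.9% of their summed UMIs came from the 13 genes of the mitochondrial genome, against 8.46%. A median of 457.5 UMIs per barcode was left for all other genes, against 2949. Malat1, a nuclear RNA abundant in most intact cells, had no UMI in 169 of the 238. The requirement of no Ptprc UMI is met more easily by shallow barcodes, and its part in these values was not tested.

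**Figure D1:**
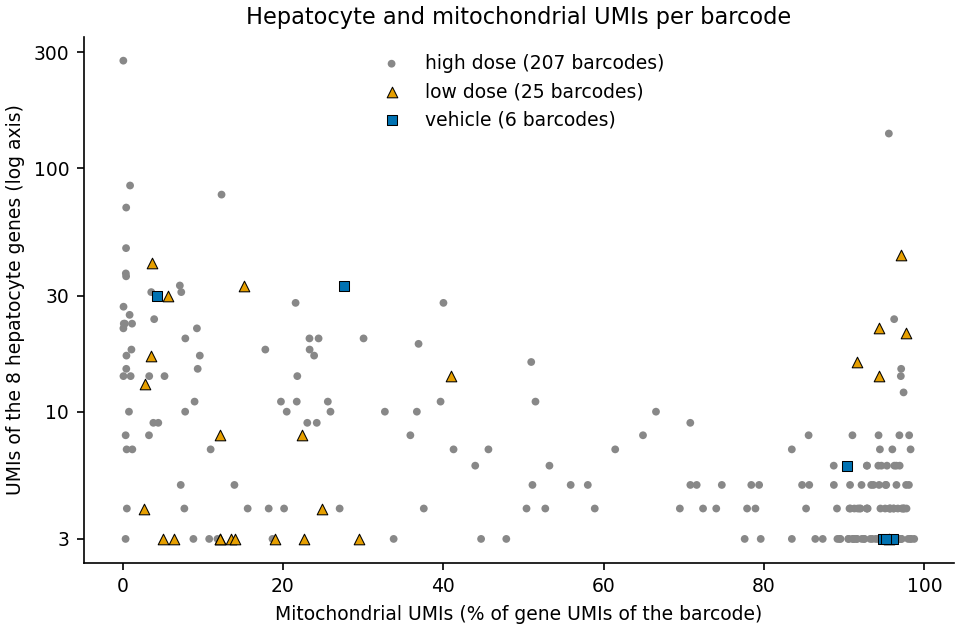
UMIs of the 8 hepatocyte genes (log axis) against the percentage of mitochondrial UMIs for each of the 238 barcodes, with squares for the vehicle, triangles for the low dose and dots for the high dose. Over all groups, the bands used below hold 50 (under 10%), 51 (10% to 50%), 39 (50% to 90%) and 98 barcodes (90% or more). Most comparisons by band use only the high dose barcodes among them (42, 38, 39 and 88).

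Whether hepatocyte transcripts were as frequent at each dose was asked first. The share of hashtag-assigned barcodes that met the rule was 0.732% for the vehicle (6 of 820, exact Clopper-Pearson 95% interval 0.269% to 1.59%), 1.90% for the low dose (25 of 1318, 1.23% to 2.79%) and 8.83% for the high dose (207 of 2345, 7.71% to 10.0%). The high dose interval lay above both others, and the vehicle and low dose intervals overlapped. With at least 10 hepatocyte UMIs the shares were 0.244% (2 barcodes), 0.835% (11) and 2.47% (58), and the high dose interval, 1.88% to 3.19%, still lay above those of the vehicle (up to 0.878%) and the low dose (up to 1.49%). With at least 30 hepatocyte UMIs they were 0.244% (2), 0.303% (4) and 0.512% (12), and all 3 intervals overlapped. A difference between the pools was thus measured for barcodes with few hepatocyte UMIs, while for those with many none could be detected at this depth.

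**Figure D2:**
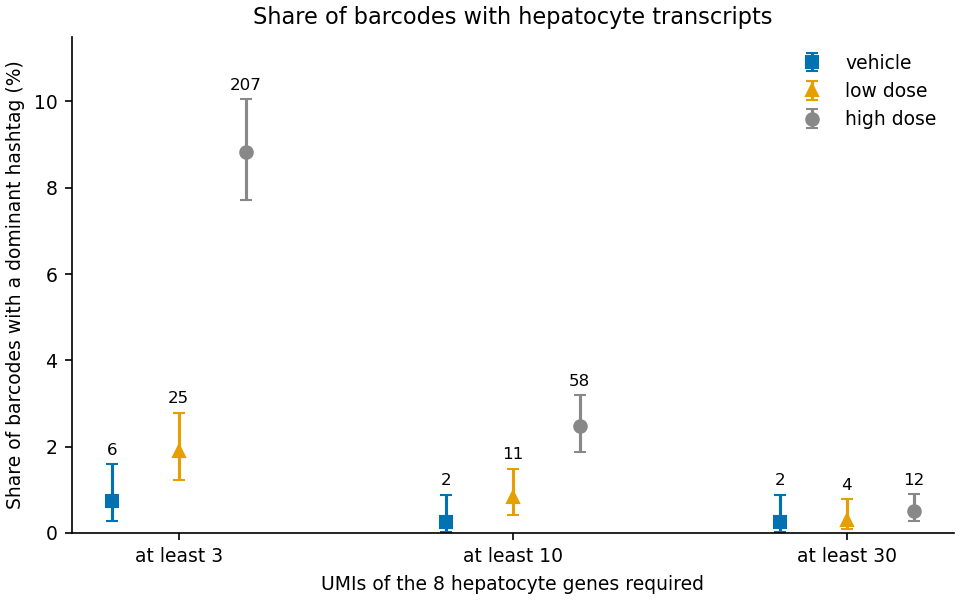
Share of hashtag-assigned barcodes (percent) with at least 3, 10 or 30 UMIs of the 8 hepatocyte genes, for the vehicle (squares), low dose (triangles) and high dose (dots), with exact Clopper-Pearson 95% intervals and the number of barcodes above each. At 3 UMIs the high dose, at 8.83%, lies above the others, and at 30 UMIs the intervals overlap.

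Other properties of the barcodes also set the high dose pool apart. Barcodes with no Ptprc UMI and at most 2 complement UMIs, which alone could meet the rule, made up 21.6% of the barcodes in the vehicle, 20.9% at the low dose and 48.8% at the high dose. Among them, the share with hepatocyte transcripts was 3.39% (6 of 177, 1.25% to 7.23%), 9.06% (25 of 276, 5.95% to 13.1%) and 18.1% (207 of 1144, 15.9% to 20.5%). The high dose was still highest, and its ratio to the others was smaller than among all barcodes. Without the limits on Ptprc and the complement genes, the shares were 2.20% (18 of 820), 4.63% (61 of 1318) and 12.7% (297 of 2345). Barcodes with 90% or more mitochondrial UMIs made up 3.41%, 0.683% and 11.6% of the groups, and under 90% the shares with hepatocyte transcripts were 0.253% (2 of 792), 1.45% (19 of 1309) and 5.74% (119 of 2073). The shares with hepatocyte transcripts kept the order of vehicle, low dose and high dose in each of these counts, whereas barcodes rich in mitochondrial transcripts were rarest at the low dose.

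Free RNA can give hepatocyte UMIs to cells that make none, and its level was not measured directly here. Barcodes with a Ptprc UMI, taken as the comparison because most of them should be leukocytes, held 46.9 (vehicle), 52.8 (low dose) and 115.7 (high dose) UMIs of the 8 genes per 1000000, against 6354, 3430 and 4379 in the barcodes with hepatocyte transcripts. Thinned to 500 UMIs each, 2.27% (median depth before thinning 8303), 3.77% (6106) and 4.26% (6936) of these barcodes kept a hepatocyte UMI, with 18.8%, 26% and 31.1% before thinning. The thinned intervals of the 3 groups overlapped (1.25% to 3.78%, 2.68% to 5.13% and 3.08% to 5.74%). They were not a clean background: 1 high dose barcode with a Ptprc UMI held 372 of the 1152 hepatocyte UMIs, and without the highest barcode of each group the levels were 39.6, 45.6 and 78.5 per 1000000. The same thinning left a hepatocyte UMI in all 6 barcodes with hepatocyte transcripts in the vehicle, in 68.0% at the low dose and in 75.4% at the high dose, whose median depths were 2122, 2031 and 1967. The selected barcodes lay above the barcodes with a Ptprc UMI in every group, which their selection on the same UMIs fixes.

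Hashtag signal was weaker in these barcodes than in others of the same group. The median of the own hashtag was 313 UMIs against 2362 for the vehicle, 838 against 1938 for the low dose and 311 against 648.5 for the high dose. A0310 was also the hashtag with most background, at a median of 34 UMIs and a 95th percentile of 251.15 in barcodes of the other groups, against 12 and 42 for A0301 and 11 and 45 for A0305. All 6 vehicle and all 25 low dose barcodes lay above the 95th percentile of their hashtag's background, but only 124 of the 207 high dose barcodes did, as did 1635 of 2138 other high dose barcodes. With that limit on all barcodes, a choice made after these values were seen, the high dose share was 7.05%, and with HTODemux it was 4.97% (43 barcodes), against 1.22% for the vehicle (10) and 1.77% for the low dose. How far background hashtag placed barcodes in the high dose group was not tested beyond this limit.

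**Figure D3:**
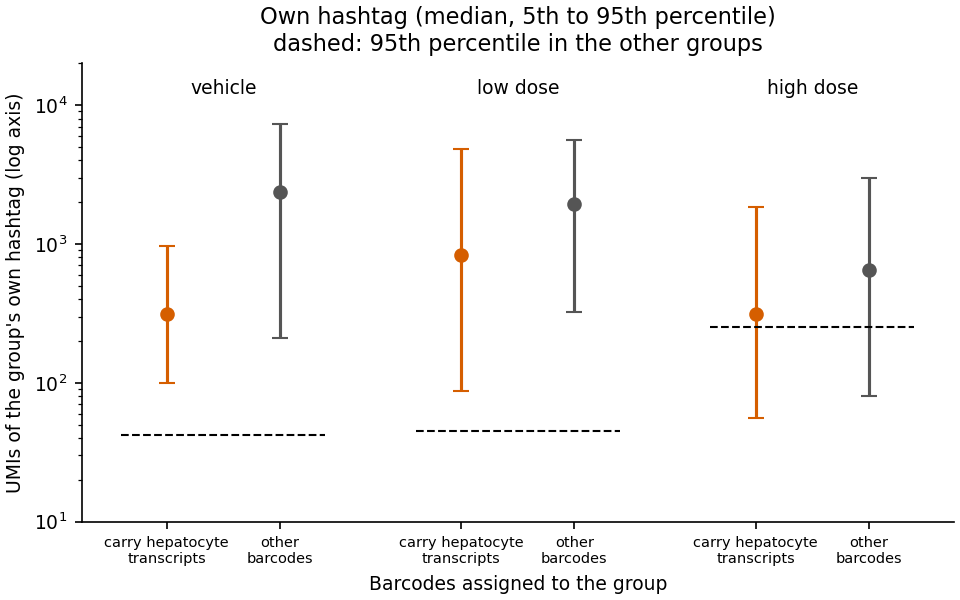
UMIs of the own hashtag (log axis) in barcodes with hepatocyte transcripts and in all other barcodes of each group, as medians with lines from the 5th to the 95th percentile, and a dashed line at the 95th percentile of that hashtag in barcodes of the other groups. The high dose medians of 311 and 648.5 lie nearer to the dashed line at 251.15 than the medians of the other groups lie to theirs.

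Mitochondrial transcripts made up 68.2% of the summed UMIs for the vehicle, 46.8% for the low dose and 70.4% for the high dose. The median barcode stood at 92.6% (lowest 4.30%, highest 96.1%), 15.1% (2.64% to 97.8%) and 79.4% (0.0957% to 98.7%). The ranges of the 3 groups overlapped almost fully. The order of the summed shares turned with the hepatocyte UMIs. With 3 of them the low dose was lowest (95.3%, 18.9% and 79.0%). With 30 to 99 it was highest (17.9%, 76.6% and 2.82%, from 2, 4 and 10 barcodes). It was also highest without barcodes that held more UMIs of other cell types than of hepatocytes. At the low dose, the 19 barcodes under 50% held 1182 endothelial and 1675 neutrophil marker UMIs, and the other 6 held 6 and 19. For the vehicle, 2 barcodes had 4.30% and 27.6%, and the other 4 had 90.3%, 94.8%, 95.3% and 96.1%. mt-Atp6, a subunit of ATP synthase, was the most abundant mitochondrial transcript in each group, with 20.9%, 19.6% and 20.8% of the mitochondrial UMIs.

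The hepatocyte UMIs of a high dose barcode and its mitochondrial share were related, but not in 1 direction. Among barcodes with no Ptprc UMI and few complement UMIs, the median mitochondrial share was 10.3% with no hepatocyte UMI, 44.4% with 1, 82.7% with 2 and 92.9% with 3. It was 91.3% with 4, 85.2% with 5 to 9, 20.1% with 10 to 29 and 2.26% with 30 to 99. Barcodes with most hepatocyte UMIs were thus mostly low in mitochondrial transcripts. The 2 highest stood at opposite ends, one with 277 hepatocyte UMIs, 12536 gene UMIs, 3616 genes and 0.0957% mitochondrial UMIs, the other with 139, 19521, 219 and 95.6%.

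High dose barcodes were then set side by side by their mitochondrial share, in bands of under 10% (42 barcodes), 10% to 50% (38), 50% to 90% (39) and 90% or more (88). Levels in the bands are UMIs per 1000000 UMIs of genes other than the mitochondrial ones. The bands and the joint lists below were chosen after these values had been looked at in several other ways, so they are a description with no test.

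What the barcodes with many and with few mitochondrial transcripts held in hepatocyte messages was different. Acute phase genes were the hepatocyte list with most UMIs at both ends, at 50811 per 1000000 under 10% and 63609 at 90% or more. Under 10%, the list of urea cycle and amino acid genes reached 24419 per 1000000, that of lipid and ketone genes 16411, that of gluconeogenesis and sugar genes 7847 and that of cytochrome P450 and conjugation genes 9338. At 90% or more the same lists were at 3140, 3140, 876 and 1315 per 1000000. The last of these differences came from the other genes of its list: the 16 cytochrome P450 genes of the list summed to 41 and 8 UMIs, or 599 per 1000000 (430 to 813) under 10% and 584 (252 to 1151) at 90% or more, and their intervals overlapped. Secreted plasma proteins outside the rule went from 16630 to 46812 per 1000000, and coagulation and complement genes from 1403 to 5623. Both secreted lists were lower in the band of 50% to 90% than under 10%, at 6952 and 1153 per 1000000, so their course over the bands was not steady. Neutrophil markers went over the bands from 1637 to 13364 per 1000000 and macrophage markers from 88 to 4674. Sinusoidal endothelial markers were highest in the middle bands, at 2440, 8565, 10482 and 2848 per 1000000 from the first band to the last, and erythroid markers reached 45916 at 10% to 50%, nearly all in 1 barcode. The part of these transcripts in the other values was not tested.

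**Figure D4:**
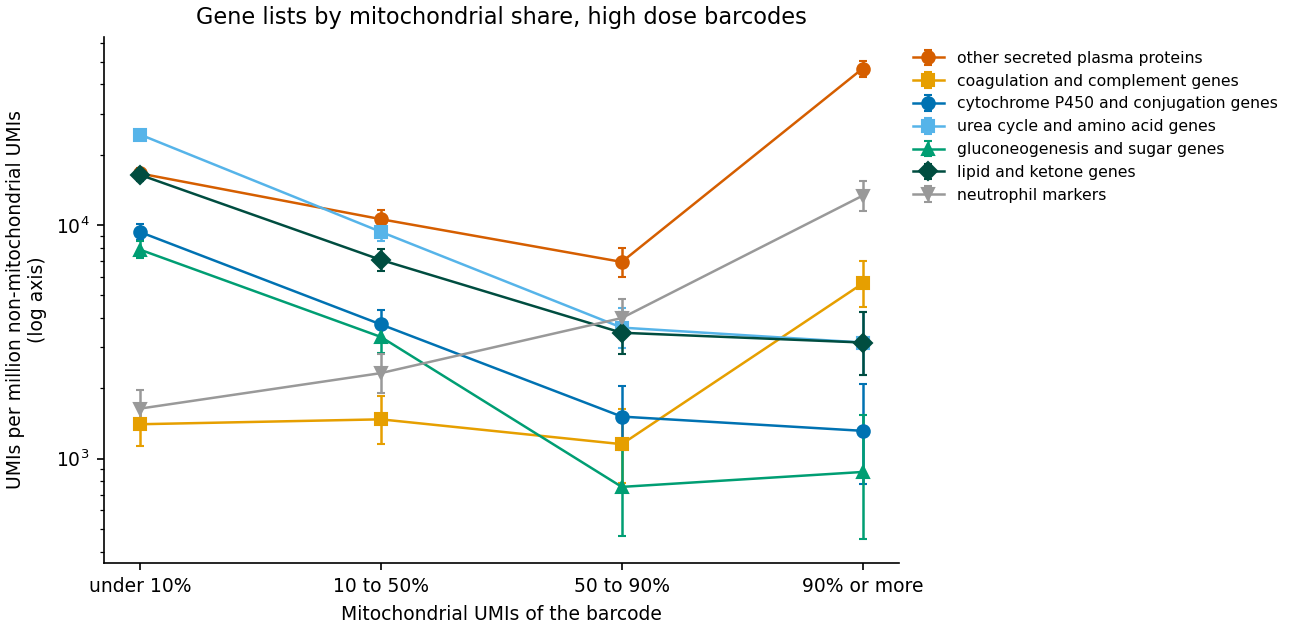
Level of 6 hepatocyte gene lists and of the neutrophil markers (UMIs per 1000000 non-mitochondrial UMIs, log axis) in high dose barcodes of 4 bands of mitochondrial share, with exact Poisson 95% intervals. The enzyme lists are lower in the third band than in the first, and the secreted lists are highest at 90% or more.

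Joined into one measure, the secreted and coagulation lists (49 genes) gave 27.0% of the UMIs of the secreted and enzyme lists together (55 enzyme genes of the urea, sugar and lipid lists) in high dose barcodes under 10% mitochondrial UMIs (1234 secreted and 3331 enzyme UMIs, 25.7% to 28.3%). The share was 37.9% at 10% to 50%, 50.8% at 50% to 90% and 88.0% at 90% or more (85.6% to 90.1%). It increased from band to band, and the intervals did not overlap. Acute phase genes are not in this measure. By barcode, 35 of 42 under 10% held more enzyme than secreted UMIs, and 80 of 88 at 90% or more held more secreted than enzyme UMIs.

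The other pools, split at 50%, gave the same order. At 50% or more mitochondrial UMIs the secreted share was 95% in the vehicle (19 of 20 UMIs, 75.1% to 99.9%), 96.1% in the low dose (6 barcodes, 92.2% to 98.4%) and 74.9% in the high dose. Under 50% it was 32.6% (2 barcodes), 48.8% (19 barcodes) and 29.8% (80 barcodes). In 175 high dose barcodes at 90% or more that had only 0 to 2 hepatocyte UMIs, and so were not selected for them, it was 85.0% (81.4% to 88.0%). In 339 such barcodes under 10% it was 21.4%, but these held many transcripts of other cells, with 17195 UMIs of erythroid and 6858 of neutrophil markers per 1000000. Leaving out the barcode with most hepatocyte UMIs in each band gave 24% and 84.4%. The enzyme lists are not particular to hepatocytes: barcodes with a Ptprc UMI held 26.8%. Dbi and Scp2 of these lists, which bind or carry lipids, are made by other cells as well.

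The 8 genes that chose the barcodes are given by band as a description only, and add nothing to the measure above. Under 10% mitochondrial UMIs the high dose barcodes held 103 UMIs of Alb and 362 of Fabp1, and at 90% or more 149 and 9. Fabp1 was 32.3% of the UMIs of the 8 genes in the first band and 1.63% in the last, and Alb was 9.19% and 27.0%. Apoa1 went from 4.10% to 26.1% and Fgb from 12% to 23.8%, whereas Apoa2 went from 13.8% to 5.44%, Apoc3 from 12.3% to 4.36% and Ttr from 6.42% to 3.27%. Serpina1c stood at 9.81% and 8.35%, and at 5.69% and 7.04% without the barcode with most hepatocyte UMIs in each band, so it had no direction. Secreted proteins of the rule thus went both ways.

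Gene by gene, the bands of 90% or more and under 10% were compared without the rule genes and mitochondrial genes, whose levels the choice of barcodes and bands sets. The totals were 13142 and 67309 UMIs, and a gene entered when at least 10 UMIs were expected in the smaller total. A gene counted as higher or lower from a log2 ratio of 1 on. Of 222 genes that entered, 21 (9.46%) were higher at 90% or more and 86 (38.7%) were lower, with a median log2 ratio of -0.38. A gene with few UMIs in one band could enter only by being high in the other, which fixed its direction, as for 11 of the 21. Among the 128 genes that would have entered at the level they had in either band, 10 (7.81%) were higher and 13 (10.2%) lower, with a median of 0.16, and the list counts below stand against these percentages.

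Of the secreted plasma proteins outside the rule, 10 entered, but 5 of them (Serpina1a, Ahsg, Gc, Fga and Fgg) would not have entered at the level they had under 10%, so they had to be higher and are given as values only. Apoc4 entered only through the band under 10%, where it was high. Of the 4 that would have entered at the level of either band, Trf, Serpina1b and Serpina3k were higher and Apoc1 lower. Fgg, the fibrinogen gamma chain, went from 42 to 81 UMIs, a log2 ratio of 3.30 (exact interval 2.75 to 3.88). Fga, the fibrinogen alpha chain, went from 36 to 52 UMIs (2.89, 2.25 to 3.54), and Trf from 286 to 126 UMIs in the smaller total (1.17, 0.86 to 1.48). The small apolipoproteins stood at 298 and 26 UMIs (Apoc1, -1.16, -1.80 to -0.58) and at 63 and 4 UMIs (Apoc4, -1.62, -3.54 to -0.19).

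Acute phase genes, which hepatocytes induce in inflammation, moved both ways. Of the 8 that would have entered at the level of either band, 3 were higher and 3 lower. Those higher encode secreted proteins: the heme scavenger Hpx (log2 ratio 3.58), the hemoglobin scavenger Hp (3.18) and Saa1 (1.81). Complement C3 (2.47) entered only through the band in which it was higher. Of those lower, Mt1 (1791 and 49 UMIs, -2.84) and Mt2 (-1.92) encode metallothioneins, small cytosolic proteins that bind zinc, and Hamp (-1.30) encodes the secreted iron hormone hepcidin.

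Of the genes on 4 enzyme lists, 20 entered and were lower at 90% or more. Only 2 of them, Dbi and Scp2 of the lipid list, would have entered at the level of that band. Scp2 is a lipid carrier and Dbi binds acyl-CoA, so neither is plainly an enzyme. The other 18 entered through the band in which they were high, which fixed their direction, and are given as values. The list sums given above do not depend on this limit. The 20 were 9 urea cycle and amino acid genes, 4 genes of the cytochrome P450 and conjugation list (Gsta3, Gstm1, Sult1a1 and Fmo5, with no cytochrome P450 gene), 3 gluconeogenesis and sugar genes and 4 lipid and ketone genes. Dbi went from 401 to 10 UMIs (log2 ratio -2.97, -4.04 to -2.07) and Scp2 from 347 to 12 UMIs (-2.50, -3.46 to -1.67). Bhmt, which makes methionine from homocysteine, went from 303 to 4 UMIs (-3.89, -5.77 to -2.52). Gsta3, a glutathione transferase, went from 207 to 2 UMIs (-4.34, -7.39 to -2.47). Otc, the urea cycle enzyme ornithine transcarbamylase, went from 79 UMIs to none, which is at least 5.14-fold lower with the floor of 3 UMIs. Of the 74 genes of cytosolic ribosomal proteins that entered, 1 was higher and 2 lower, with a median of 0.26, so most differed by less than the fold between the bands.

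**Figure D5:**
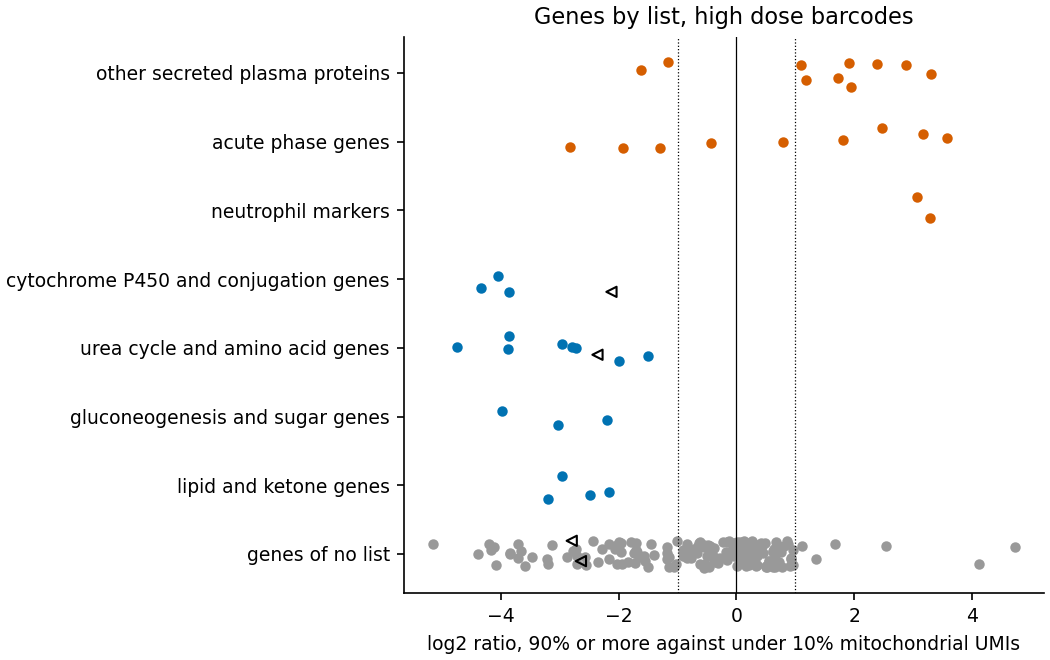
Log2 ratio of each gene in high dose barcodes with 90% or more against under 10% mitochondrial UMIs, by gene list, with open triangles for genes at 0 UMIs in the former (set to 3 UMIs) and dotted lines at -1 and 1. Points of the enzyme lists all lie below -1, 18 of the 20 having entered only through the band in which they were high; secreted genes lie on both sides, 5 of the 10 having entered only because they were higher.

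Gm42418, a transcript that overlaps ribosomal RNA and is on no list, went from 600 to 685 UMIs in the smaller total (log2 ratio 2.55, 2.39 to 2.71). Apoe, Tmsb4x, Akr1c6 and Adh1, which are also on no list, were named after their values were seen. Apoe, a secreted apolipoprotein made by hepatocytes and macrophages, went from 85 to 290 UMIs (4.13, 3.77 to 4.49). Tmsb4x, a cytosolic actin-binding protein abundant in leukocytes, went from 39 to 202 UMIs (4.73, 4.23 to 5.26). The neutrophil markers S100a8 (3.06) and S100a9 (3.30) and the nuclear RNA Malat1 (3.19) were higher as well. Of the 132 Malat1 UMIs at 90% or more, 55 came from 1 barcode at 90.7% mitochondrial UMIs, and 65 of the 88 barcodes had none. Tmsb4x, S100a8 and S100a9 entered only through the band in which they were higher. Among those lower were Akr1c6, a steroid dehydrogenase (182 and 1 UMIs, -5.15, -10.5 to -2.65), and Adh1, alcohol dehydrogenase (107 and 1 UMIs, -4.38, -9.70 to -1.88), both of which entered only through the band in which they were high. Among the higher genes whose direction the entry limit did not fix, Malat1 and Gm42418 stood beside genes of secreted proteins, and no neutrophil marker did.

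Levels at the 3 doses were compared on UMIs summed over all barcodes of a group and scaled per 1000000 gene UMIs (CPM). The vehicle had 12276 gene UMIs from 6 barcodes, the low dose 93009 from 25 and the high dose 534099 from 207, so the vehicle set the precision. Both doses share this vehicle, and their ratios to it are not independent.

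At the high dose, 39 genes had enough UMIs to enter, of which 7 (17.9%) were higher and 3 (7.69%) lower than in the vehicle, with a median log2 ratio of 0.02. With so few vehicle UMIs, a gene under 10 UMIs there could enter only by being high at the dose, and 6 of the 7 did so. One of the 3 lower genes was Fabp1, which the rule used, so that its level is set by the choice of barcodes. Without the rule genes, among the 29 that would have entered at the level of either group, 1 (3.45%) was higher and 2 (6.9%) lower, with a median of -0.13. Mitochondrially encoded genes were kept here, and 11 of the 39 were of this kind, with 0 higher, 0 lower and a median of 0.09. Trf went from 3829 CPM in the vehicle to 1078 CPM (log2 ratio -1.83, -2.26 to -1.37; 946 CPM at the low dose) and Mt1 from 15640 to 4591 CPM (-1.77, -1.98 to -1.55; 2602 CPM at the low dose). As a description, Fabp1 stood at 2281 and 936 CPM (-1.28). The next in size, Scp2, a lipid carrier (-0.98), Mt2 (-0.97), the ferritin chains Fth1 (-0.91) and Ftl1 (-0.73), and Dbi, which binds acyl-CoA (-0.57), did not reach the fold. The lower values of Trf and Mt1 rested on 2 vehicle barcodes, those under 50% mitochondrial UMIs, which held 42 of the 47 vehicle UMIs of Trf and 191 of 192 of Mt1, as well as all 28 of Fabp1. With the mean over barcodes only 1 gene was lower, so at most 1 of Trf and Mt1 kept the fold.

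The gene that was higher and would have entered at the vehicle level was Gm42418, a transcript that overlaps ribosomal RNA, at 1711 CPM in the vehicle and 6209 CPM at the high dose (1.86, 1.25 to 2.55). The other 6 entered only because they were high at the high dose, so their direction was fixed by the entry limit and they are given as values. Of the acute phase serum amyloids, Saa2 had 1 UMI in the vehicle and 559 at the high dose (81.5 and 1047 CPM, log2 ratio 3.68, 1.2 to 8.99), and Saa1 had 5 and 468 UMIs (407 and 876 CPM, 1.11, -0.13 to 2.73). The interval of Saa1 included no change. At the low dose Saa2 stood at 1333 CPM and Saa1 at 1559 CPM. With groups called by HTODemux, a clustering method for hashtags that gave the vehicle 10 barcodes, both genes were lower than in the vehicle at the high dose (Saa2 -2.52, Saa1 -1.91) and at the low dose (-0.44 and -0.43). HTODemux changed the barcodes of the vehicle (6 to 10) and of the high dose (207 to 43) together. Malat1 had no UMI in the vehicle and 750 in 52 high dose barcodes, a log2 ratio of at least 2.52 at the floor of 3 UMIs. Without the barcodes that held more UMIs of other cell types than of hepatocytes, 76 of the 750 UMIs were left, and with the vehicle still at 0 no direction could be given. Actb, cytoskeletal actin, stood at 652 and 1327 CPM (1.03, 0.04 to 2.24). Tmsb4x (0.95) missed the fold. Hemoglobin Hbb-bs (3.83) and Hba-a1 (at least 1.96) also passed, but 98.8% of the 2239 erythroid UMIs of the high dose came from 1 barcode, and without the barcodes that held more UMIs of other cell types the high dose kept 7 UMIs of Hbb-bs (-2.37, -5.33 to 3.13) and 3 of Hba-a1, against 1 and 0 in the vehicle.

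At the low dose 70 genes entered, of which 38 (54.3%) were higher and 3 (4.29%) lower than in the vehicle, with a median log2 ratio of 1.80. Of the 38, however, 36 had under 10 UMIs in the vehicle and could enter only by being high at the low dose. Without the rule genes, among the 30 that would have entered at the level of either group, 2 (6.67%), Gm42418 (2.61) and Apoe (1.40, 0.49 to 2.48), were higher and 2 (6.67%) lower, with a median of -0.01. Of the 70 genes, 11 were mitochondrially encoded, with 0 higher, 0 lower and a median of -0.43. The mitochondrial share of 46.8% against 68.2% bears on the CPM scale: per 1000000 non-mitochondrial UMIs, 22 genes entered and 15 were higher. Lower were Mt1 (-2.59) and Trf (-2.02), against the same 6 vehicle barcodes as at the high dose, and the rule gene Fabp1 stood at -1.85. mt-Cytb, of the respiratory chain, came next (-0.89). With no complement UMI only 1 gene was counted as lower, so at most 1 of Mt1 and Trf was. A gene must also enter to be counted, so this count does not show whether either of them lost the fold. The highest ratios, whose direction the entry limit fixed, were those of Malat1 (0 and 915 UMIs, at least 5.33), of the neutrophil gene Retnlg (1 and 238 UMIs, 4.97, 2.48 to 10.3), of Saa3, a serum amyloid made outside hepatocytes too (0 and 490 UMIs, at least 4.43), and of Il6st, the shared receptor of interleukin 6 cytokines (1 and 129 UMIs, 4.09, 1.59 to 9.40).

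Transcripts of other cells moved with these values. Neutrophil markers (14 genes, led by S100a9) summed to 1629 CPM in the vehicle, 18213 CPM at the low dose and 970 CPM at the high dose, and 1 low dose barcode gave 46.2% of its group's UMIs. Sinusoidal endothelial markers (14 genes, led by Clec4g) were all at 0 in the vehicle and summed to 12773 CPM at the low dose and 1704 CPM at the high dose. Leaving out barcodes with more UMIs of other cell types than of hepatocytes removes these markers by construction. It left 1 UMI of Retnlg, 9 of Saa3 and 1 of Stab1 at the low dose, against 1, 0 and 0 in the vehicle, so that no direction could be given, and Tmsb4x, on none of the lists, stood at -0.96 (-2.21 to 0.43). In the low dose, 8 of 25 barcodes held at least 40 endothelial UMIs and 3 at least 40 neutrophil UMIs. The 38 higher genes included 7 endothelial and 4 neutrophil markers. The entry limit fixed the direction of these too.

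Over all groups, 89 of the 238 barcodes (2 vehicle, 13 low dose, 74 high dose) held more UMIs of other cell types than of the 8 hepatocyte genes. Endothelial UMIs outnumbered the hepatocyte ones in 34 barcodes, neutrophil UMIs in 22, macrophage UMIs in 7, and erythroid and platelet UMIs in 1 each. Macrophage markers (12 genes, led by Lyz2) summed to 326, 183 and 281 CPM, with Clec4f, Vsig4, Cd5l and Timd4 of the Kupffer cells at 0 in the vehicle and the low dose; the rule itself limits C1qa, C1qb and C1qc. Stellate cell, cholangiocyte, dendritic cell, platelet, T, B and tumor cell markers summed to at most 244 CPM in any group, and the T, B, dendritic, platelet, stellate and tumor lists were at 0 in the vehicle. The name hepatocyte therefore fits the transcripts by which the barcodes were chosen, and not every barcode, and single barcodes with transcripts of 2 cell types could not be told apart from mixed droplets, since no doublet caller was run.

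The remaining hepatocyte lists were too thin for a count in the dose comparison, since 0 of their genes entered, with values below in the order vehicle, low dose and high dose. Cytochrome P450 and conjugation genes summed to 1466, 699 and 1648 CPM, periportal genes to 3910, 860 and 1636 CPM, and pericentral genes to 815, 968 and 1090 CPM. Urea cycle and amino acid genes summed to 7902, 1688 and 4243 CPM and gluconeogenesis and sugar genes to 2688, 559 and 1367 CPM. Hepatocyte transcription factors, such as Hnf4a, summed to 3, 7 and 149 UMIs (244, 75 and 279 CPM), and bile acid genes to 1, 18 and 86 UMIs (81, 194 and 161 CPM). The urea, sugar and periportal lists were highest in the vehicle, where 2 of 6 barcodes were under 50% mitochondrial UMIs, and lowest at the low dose. Of lipid and ketone genes, at 5458, 1376 and 3003 CPM, 2 entered at the high dose and passed in neither direction. Coagulation and complement genes, none of which entered, summed to 570, 1054 and 517 CPM.

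Lists on the drug and on stress were close to the limit of detection in the vehicle. Targets of p53, a pathway that CBL0137 is known to activate, summed to 5 UMIs in the vehicle (407 CPM), 43 at the low dose (462 CPM) and 130 at the high dose (243 CPM). Interferon-stimulated genes summed to 3, 72 and 140 UMIs (244, 774 and 262 CPM), and stress response genes to 2, 55 and 192 UMIs (163, 591 and 359 CPM). Immediate early genes summed to 4, 202 and 172 UMIs (326, 2172 and 322 CPM). The FACT subunits Ssrp1 and Supt16 had 0, 7 and 21 UMIs (0, 75 and 39 CPM). No gene of these lists entered. Per 1000000 non-mitochondrial UMIs the immediate early genes stood at 1024 in the vehicle (279 to 2621), 4086 at the low dose (3542 to 4690) and 1088 at the high dose (931 to 1263), so the low dose interval lay above both others. The low dose barcodes also held the highest levels of neutrophil and endothelial markers, and their part in this value was not tested. For the p53, interferon and stress lists and the FACT subunits, the intervals of both doses overlapped that of the vehicle on this scale. The p53 list stood at 1280, 870 and 822 and the stress list at 512, 1112 and 1214, so their order differed from that in CPM.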

How the data were processed

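RNA of single cells was measured in 2 libraries. The authors deposited filtered matrices of UMI counts for genes and hashtags in each barcode, not normalized, made with Cell Ranger (5.0.0 in the matrix header, 6.0.0 in the submitters' processing notes, and a later version in the methods) against mm10. The fewest gene UMIs of a barcode were 500, and 0 other per-sample columns were left unused. Barcodes without a dominant hashtag (347) entered no comparison between groups. Totals ranged from 500 to 126369 gene UMIs per barcode.

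Members and gene lists were chosen with earlier results of these data known. Counts were summed per group and scaled to 1000000 gene UMIs. Shares carry Clopper-Pearson intervals, levels Poisson intervals and ratios conditional binomial intervals, all exact and at 95%. A gene entered with 10 UMIs expected in the smaller group, counted from a 2-fold difference, and a count of 0 was set to 3, with no ratio given where both groups held 3 or fewer. Thinning drew 500 UMIs per barcode with seed 7. Named genes were list genes (of long lists those with most UMIs), the 10 most abundant, and the 8 (high dose) or 4 (low dose) largest rises and falls. Comparisons by mitochondrial share, their limits of 10%, 50% and 90%, the joint lists, the hashtag limit at the 95th percentile and the removal of the barcode with most hepatocyte UMIs from each band, and the split of genes by whether they would have entered at the level of the other side, were added after values had been seen, in which gene levels, lists and dose ratios by band had also been examined.

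Alternatives were HTODemux (Seurat 5.3.0, R 4.3.3, quantile 0.99), other limits on hepatocyte, complement, hashtag and mitochondrial UMIs, other totals, means or medians over barcodes, and other minimum counts. Results for 2 genes of the lists are not reported here. Gene positions came from GENCODE mouse release 21, which held 32158 of 32285 identifiers. Python 3.11.15, numpy 2.4.6, scipy 1.17.1, pandas 2.3.3 and matplotlib 3.10.9 were used. Ratios were tested on simulated counts with 200 changed genes. These counts were drawn without spread between barcodes or mice, as the intervals assume, so the effect of such spread was not tested. In 1 first draw for the high dose against the vehicle 89.8% of 49 genes had the simulated ratio inside the interval, after which 50 draws were pooled, giving 96.3% (high dose), 97.3% (low dose) and 96.7% (bands).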

Additional observations from a re-analysis of the deposited data

Results flagged for a closer look

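Barcodes without a dominant hashtag lay outside every comparison, and 16 of them met the rule for hepatocyte transcripts. They held a median of 14 UMIs of the 8 hepatocyte genes (lowest 3, highest 126), against 5 in the 238 assigned barcodes, and 18122 CPM of these genes against 4279 CPM. Their summed mitochondrial share was 36.2%, their median depth 1257.5 gene UMIs, and 15 of the 16 had no Malat1 UMI. Their highest hashtag had a median of 81 UMIs. The pool from which they came is unknown. They are given because no comparison used them, and at least 3 hepatocyte UMIs in each is fixed by the rule.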

How the results depend on the processing

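The order of the shares (high dose above low dose above vehicle) was kept in each alternative that changed 1 choice, including those in which the high dose value came to 4.97% (HTODemux), 7.05% (hashtag above background), 6.74% (no complement UMI) or 5.67% (without barcodes that held more UMIs of other cell types). With at least 10 and 30 hepatocyte UMIs the shares were 2.47% and 0.512% (high dose), 0.835% and 0.303% (low dose) and 0.244% and 0.244% (vehicle). Under 50% mitochondrial UMIs they were 3.41% (high dose) and 0.244% (vehicle), and without the barcodes of other cell types 0.910% (low dose). With at least 30 hepatocyte UMIs and under 50% mitochondrial UMIs together, the vehicle (0.244%, 2 barcodes) lay above the low dose (0.228%, 3 barcodes). The order of the mitochondrial share was not kept. With at least 10 hepatocyte UMIs it was 17.9% (vehicle), 83.2% (low dose) and 42.8% (high dose), with at least 30 it was 17.9%, 76.6% and 36.1%, and as a median 92.6%, 15.1% and 79.4%. Under 50% it was 17.9%, 16.5% and 14.3% by construction, with no complement UMI 55%, 42.0% and 67.6%, and without barcodes of other cell types 55.9%, 81.2% and 70.8%. HTODemux gave 62.7% (vehicle) and 77.4% (high dose), 50 hashtag UMIs 71.2% and the background limit 74.7% (both high dose).

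The secreted share stayed far apart between the bands. At 90% or more it was 85.4% (HTODemux), 96.9% and 98.6% (10 and 30 hepatocyte UMIs), 90.4% (without barcodes of other cell types) and 84.4% (without the top barcode). Under 10% it was 23.1% (HTODemux), 30.4% (hashtag background), 28.8% (all 3 groups) and 24% (without the top barcode). The median over barcodes was 85.7% and 27.0%.

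Counts of genes, which include those that entered only by being high at a dose, moved with the minimum count and the barcodes kept. Higher at the high dose were 11 (10 hepatocyte UMIs), 20 and 1 (at least 3 and 30 UMIs expected), and 4 each with the hashtag background limit, no complement UMI or no barcodes of other cell types. Lower at the high dose were 9 (HTODemux), 31 and 1 (3 and 30 expected), 5 (50 hashtag UMIs), 1 (mean over barcodes) and 5 (no complement UMI). Higher at the low dose were 15 with either total without mitochondrial genes, 14 each with 10 or 30 hepatocyte UMIs or under 50% mitochondrial UMIs, 99 and 8 (3 and 30 expected), 19 (no complement UMI) and 8 (no barcodes of other cell types). Lower at the low dose were 13 (HTODemux), 34 and 1 (3 and 30 expected), 5 (30 hepatocyte UMIs), 7 (mean), 1 (no complement UMI) and 5 (no barcodes of other cell types). Apart from the minimum count, where fewer or more genes enter by construction, the cause was not tested.

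Log2 ratios to the vehicle that changed sign were as follows. With HTODemux they were Saa1 -1.91 (-2.55 to -1.23) and Saa2 -2.52 (-3.22 to -1.80) at the high dose and Saa1 -0.43 and Saa2 -0.44 at the low dose. At the high dose Hbb-bs, with only 1 or 2 UMIs in the vehicle, was at -2.22 (HTODemux), -2.61 (10 hepatocyte UMIs), -2.33 (50 hashtag UMIs), -2.37 (hashtag background) and -2.37 (without barcodes of other cell types), and each interval included no change (as wide as -5.77 to 2.95). At the low dose, 10 hepatocyte UMIs gave Actb -0.65 and Lcn2 -2.69 (-4.77 to -0.42), 30 gave Actb -0.019 and Lcn2 -1.55, and leaving out barcodes of other cell types gave Lcn2 -1.70, S100a9 -0.02 and Tmsb4x -0.96. For 23 ratios no value could be given, because both groups held 3 UMIs or fewer or because the vehicle was at 0 and the floor of 3 UMIs gave no direction. Among them were Hba-a1 and Malat1 (high dose) and Retnlg, Saa3 and Stab1 (low dose). Trf and Mt1 changed sign in none of the alternatives run, but not both kept the fold in all of them. At most 1 of them kept the fold with the mean over barcodes (high dose). With no complement UMI (low dose), or with at least 30 UMIs expected at either dose, at most 1 of them was counted as lower. A gene must also enter to be counted, and the limit of 30 changes no ratio, so these counts do not show a lost fold. No paired analysis was possible because each group was 1 pooled sample. The 12276 UMIs of the vehicle limit every ratio to it.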
